A study of Mus musculus with 8 samples.

Results

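Mast cell and basophil genes were followed in cultures of mouse hematopoietic stem and progenitor cells (HSPCs) grown with or without malonyl-CoA. The set holds 10 named genes, Cpa3, Mcpt8, Fcer1a, Ms4a2, Hdc, Slc18a2, Hpgd, Cma1, Tpsb2 and Il1rl1, out of 48709 gene identifiers counted, and all 10 passed the filter on low counts, as did 12696 genes in all. They were chosen by name as genes of these 2 cell types. The rule holds no measured value, but the set was proposed with earlier results of these data known. The HSPCs (lineage-negative, Sca1+ and cKit+ cells) came from C57Bl/6J mice, and the labels do not give their ages. Each well received 10000 cells in serum-free medium with 100 ng/ml stem cell factor and 2 ng/ml Flt3 ligand, which both groups shared. The 4 malonyl-CoA cultures also had 100 µM malonyl-CoA, a building block of fatty acids, for 7 days, and the 4 control cultures had none. RNA was taken from all progeny of the seeded cells at day 7, so each library is a bulk mixture of stem, progenitor and maturing cells. In such mixtures fewer cells of a type and less RNA per cell cannot be told apart.

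Mast cells and basophils are the granulocytes of immediate allergic reactions. Both carry the high-affinity receptor for immunoglobulin E, store histamine and proteases in granules bound to proteoglycan, and release them when antigen crosslinks the receptor. They branch from myeloid progenitors under the transcription factors Gata2, Mitf and Cebpa. Stem cell factor, the ligand of Kit, sustains mast cells, while interleukin-3 is the main growth factor of basophils. Progenitors of these lineages already transcribe several of the genes, Cpa3, Hdc and Slc18a2 among them, before granules mature.

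Libraries held 17492085 to 22079844 counts in genes, and the 10 members together took 0.0669% to 0.0970% of them. A pair of libraries stood apart from the rest. Malonyl-CoA 4 had a score of 63.3 on the first principal component, where the other 7 scored between -30.4 and 25.3. Control 5 stood apart by base composition. The deviation of its genes from their mean over libraries ran with transcript GC share at a rank correlation of -0.69. This value was -0.070, -0.045 and 0.18 in controls 1, 3 and 4, and 0.19 to 0.45 in the malonyl-CoA libraries. The groups thus did not overlap in it. Its part in the members' values was not tested, but values from a fit with an offset for GC content and transcript length are given below. Genes are not independent replicates, so this correlation across genes describes the library only. Levels below are CPM, raw counts divided by the TMM-scaled library total, and fold changes are log2 values, malonyl-CoA minus control, from edgeR's quasi-likelihood test over all genes.

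Stretches of DNA just upstream of the members' start sites are shown first, because binding sites of GATA factors are a known feature of mast cell and basophil promoters. RefSeq windows (build GRCm38.p6) were found for 9 of the 10 genes, with a pair of starts for Il1rl1. Tpsb2 had none. The 250 bases before each start were searched on both strands for 4 spellings of the GATA motif, which are AGATAA with its variant AGATAG, and TGATAA with its variant TGATAG. In the lines below, read 5′ to 3′ along the gene, capitals mark each match, in either orientation, and every stretch ends where the RefSeq or GENCODE transcript begins, whichever lies further upstream.
Cpa3 (chr3:20242182-20242431, minus strand): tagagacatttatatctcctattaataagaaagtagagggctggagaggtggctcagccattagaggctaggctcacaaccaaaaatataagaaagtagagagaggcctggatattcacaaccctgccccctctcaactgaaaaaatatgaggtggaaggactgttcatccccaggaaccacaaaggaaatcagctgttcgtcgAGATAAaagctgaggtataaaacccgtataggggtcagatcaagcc
Ms4a2 (chr19:11623720-11623969, minus strand): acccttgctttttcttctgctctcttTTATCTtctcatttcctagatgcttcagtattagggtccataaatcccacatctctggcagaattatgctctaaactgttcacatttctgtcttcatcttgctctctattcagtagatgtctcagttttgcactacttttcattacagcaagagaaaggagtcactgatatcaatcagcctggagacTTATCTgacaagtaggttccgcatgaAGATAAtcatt
Fcer1a (chr1:173227230-173227479, minus strand): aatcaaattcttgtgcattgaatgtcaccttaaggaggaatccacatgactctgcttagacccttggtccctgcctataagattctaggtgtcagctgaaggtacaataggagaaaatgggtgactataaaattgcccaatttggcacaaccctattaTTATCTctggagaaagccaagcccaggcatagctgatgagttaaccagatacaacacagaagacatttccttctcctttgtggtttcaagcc
Slc18a2 (chr19:59260628-59260877, plus strand): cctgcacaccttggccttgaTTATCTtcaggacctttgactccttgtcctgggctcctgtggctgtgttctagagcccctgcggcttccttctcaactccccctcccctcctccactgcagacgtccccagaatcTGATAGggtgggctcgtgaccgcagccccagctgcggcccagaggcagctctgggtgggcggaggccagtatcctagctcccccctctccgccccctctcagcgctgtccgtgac
Il1rl1 (chr1:40429320-40429569, plus strand): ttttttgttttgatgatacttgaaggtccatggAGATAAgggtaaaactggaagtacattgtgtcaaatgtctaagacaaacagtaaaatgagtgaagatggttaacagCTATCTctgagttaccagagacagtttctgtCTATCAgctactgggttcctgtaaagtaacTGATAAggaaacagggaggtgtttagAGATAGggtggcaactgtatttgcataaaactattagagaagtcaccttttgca
Mcpt8 (chr14:56085274-56085447, minus strand): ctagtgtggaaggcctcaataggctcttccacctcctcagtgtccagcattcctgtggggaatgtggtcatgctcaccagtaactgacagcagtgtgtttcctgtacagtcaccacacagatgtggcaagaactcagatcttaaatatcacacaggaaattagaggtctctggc
The windows of Cpa3 and Fcer1a held 1 match each, that of Slc18a2 had 2, that of Ms4a2 3 and that of the upstream Il1rl1 start 5. The Cpa3 match spans bases 46 to 41 before the start, the Fcer1a match bases 92 to 87, and the nearest Ms4a2 match bases 11 to 6. Mcpt8 and Hpgd had no match in their windows. Hdc and the downstream Il1rl1 start had 1 match each, in windows that lie inside the GENCODE genes. Bases after the start matched a GENCODE transcript 5′ end in 7 of the 10 windows. In all, 8 of 10 member windows, 2 of them from Il1rl1, held at least 1 match, against 26.5% of 32851 windows of this length in the table. The member windows had a median GC share of 47.2% and all windows one of 52.4%, and these motif letters are richer in A and T, so base composition moves with this count and its part in it was not tested. The letters CAGCTG, a form of the E-box bound by Tal1 and its partners, occurred in 4 member windows (Fcer1a, Cpa3, Hpgd and Slc18a2) and in 13.0% of all windows. A further 2 motifs were searched: GAGGAA, letters of the ETS motif, occurred in 3 member windows and 23.3% of all, and the TATA box letters TATAAA in 2 member windows and 12.4% of all. A match is a string of letters in DNA and not a measured binding site.

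The first question was which of these genes are transcribed in the cultures at all, and at what level per length of transcript. Controls gave Mcpt8 at 330 CPM per kilobase of exon, the highest of the 10, followed by Cpa3 at 140. Next came Fcer1a with a range over the 4 controls of 25.3 to 36.3, Hdc with 23.1 to 36.1 and Ms4a2 with 17.8 to 27.4 CPM per kilobase, and these 3 neighbours are not separated by their spread. Hpgd (8.12 to 11.9), Slc18a2 (5.67 to 7.36) and Il1rl1 (2.59 to 3.68) followed, without overlap between neighbours. Cma1 at 0.400 and Tpsb2 at 0.370 CPM per kilobase closed the order, and their ranges overlapped. Other protease and receptor genes of mast cells had few counts. Per library, Mcpt1 had 1 to 9 counts, Mcpt2 had 0 to 4, Mcpt4 had 0 to 18, Tpsg1 had 0 to 2 and Mcpt9 had 0, while the receptor gene Mrgprb2 and the tryptase gene Tpsab1, which is known to be defective in C57Bl/6 mice, each had 1 count over all 8 libraries. Prss34, a basophil protease outside the set, stood at 167 ± 26.3 CPM in control and 149 ± 13.7 in the malonyl-CoA libraries (SD, n = 4 each).

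**Figure D1:**
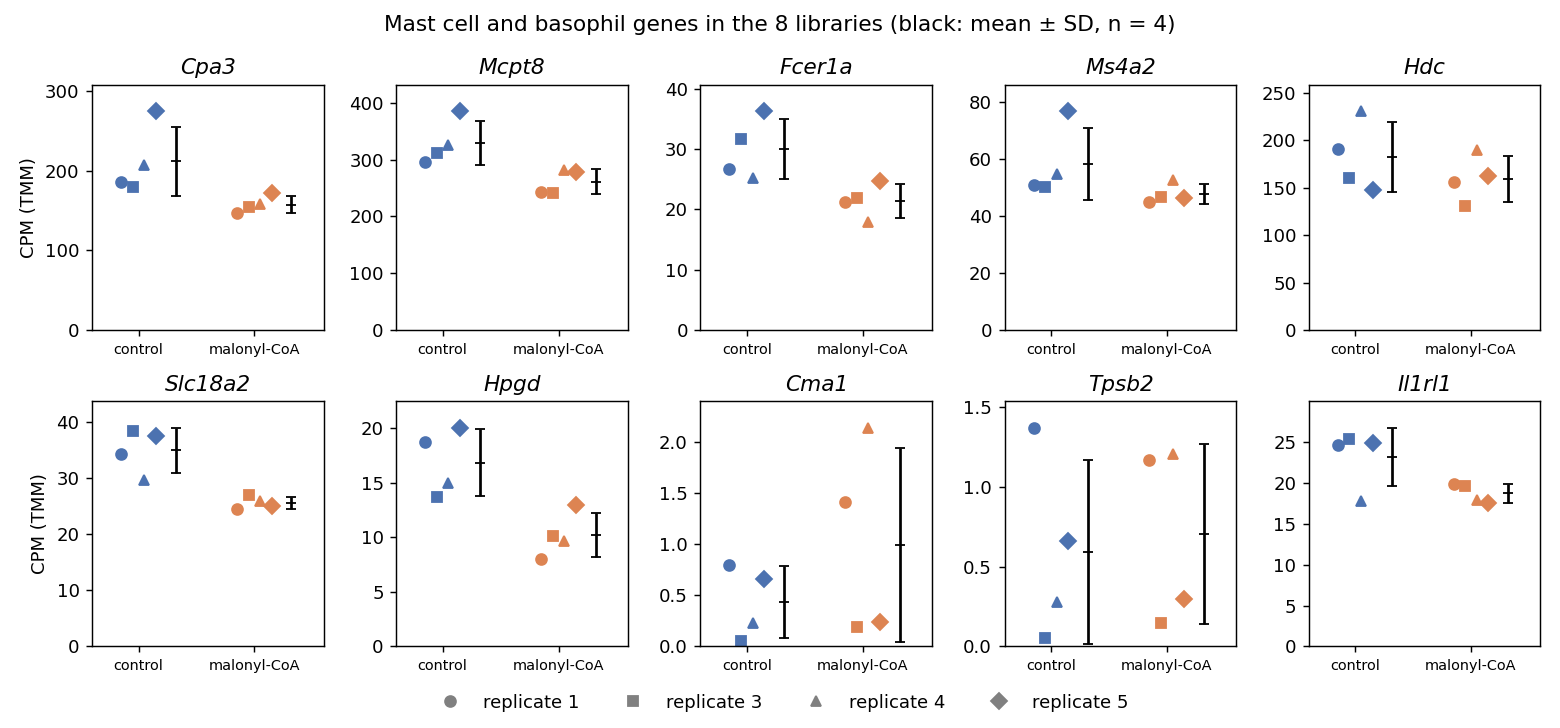
Level of each member gene (vertical axis, CPM with TMM factors, from 0) in the 4 control and 4 malonyl-CoA libraries, with symbols for the replicate number and black bars for mean ± SD (n = 4). The malonyl-CoA libraries lie below all controls for Cpa3, Mcpt8, Fcer1a, Slc18a2 and Hpgd, and the groups overlap for the other 5 genes.

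The second question was whether malonyl-CoA cultures differed from controls in these genes. None of the 10 passed edgeR's quasi-likelihood test at an adjusted p under 0.05, as was true of all genes (0.0% of 12696). At an unadjusted p under 0.05, 5 members were lower with malonyl-CoA and 0 higher, beside 4.1% and 5.43% of all genes (9.53% in either direction). Cpa3, Mcpt8, Fcer1a, Slc18a2 and Hpgd are those 5, and the same 5 are the members in which every malonyl-CoA library lay below every control, which held for 2.93% of all genes. The opposite order held for 0 members and 3.21% of all genes. Counting signs alone, 8 of 10 members had a fold change below 0, against 46.6% of all genes. The median log2 fold change of the 10 was -0.32, and that of all tested genes 0.023. With the offset for GC content and transcript length these medians were -0.24 and -0.021. Because the set was chosen with results known, these shares describe it and do not test it. DESeq2 and limma-voom called 0 of the 10 as well, where they called 0.597% and 0.0% of the genes with an adjusted p, and a fit with the replicate number as a block called 0 of the 10 and 1.35% of all genes.

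Granule enzymes of the basophil and early mast cell type come first. Cpa3 encodes carboxypeptidase A3, which trims peptides in secretory granules (ENSMUSG00000001865, GRCm38 chromosome 3, 20215620 to 20242181, minus strand). It stood at 186, 179, 207 and 275 CPM in controls 1, 3, 4 and 5 and at 147, 154, 158 and 172 CPM in the malonyl-CoA libraries of the same numbers. Control 5 was the highest of all, and the lowest control lay just above the highest malonyl-CoA library. The means were 212 ± 43.8 and 158 ± 10.7 CPM (SD, n = 4 each), a log2 fold change of -0.43 (SE 0.15, edgeR adjusted p = 0.472). It was -0.28 when control 5 was left out, and with an offset for GC content and transcript length -0.16.

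Mcpt8 encodes a serine protease that marks mouse basophils (ENSMUSG00000022157, chromosome 14, 56082166 to 56085273, minus strand). Its controls read 295, 312, 326 and 386 CPM, and its malonyl-CoA libraries 244, 241, 282 and 279 CPM. Control 5 was again highest, and no malonyl-CoA library reached the lowest control. Malonyl-CoA minus control came to -0.33 on the log2 scale (SE 0.12, edgeR adjusted p = 0.487), or -0.22 with the GC and length offset. With 4713 to 8216 counts per library, Mcpt8 was the most deeply counted member.

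Cma1 and Tpsb2 encode proteases of mature mast cells, a chymase and a tryptase. Cma1 (ENSMUSG00000022225, chromosome 14, 55941451 to 55944675, minus strand) lies in the same protease cluster as Mcpt8. It had 14, 1, 5 and 14 counts in controls 1, 3, 4 and 5 and 29, 4, 48 and 4 counts with malonyl-CoA. Tpsb2 (ENSMUSG00000033825, chromosome 17, 25366305 to 25369098, plus strand) had 24, 1, 6 and 14 counts in controls and 24, 3, 27 and 5 with malonyl-CoA. Both genes were highest in control 1, control 5, malonyl-CoA 1 and malonyl-CoA 4, and lowest in control 3. Each of the groups thus held a pair of libraries with more of these transcripts and a pair with few.

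The chymase gene Mcpt4 had 18 counts in malonyl-CoA 4 and 0 to 5 in the other libraries. Log2 fold changes were 1.26 (SE 0.81) for Cma1 and 0.34 (SE 0.76) for Tpsb2, with an edgeR adjusted p of 0.543 and 0.851, and the groups overlapped in both. Cma1 was at 0.54 without malonyl-CoA 4. Tpsb2 changed sign without control 3 (-0.026) or without malonyl-CoA 4 (-0.067), and moved to 1.08 without control 1, 0.095 without control 4, 0.0056 without malonyl-CoA 1, 0.68 without malonyl-CoA 3 and 0.56 without malonyl-CoA 5. Tpsb2 and Tpsab1 are close copies, and reads that match both are lost to the class with several positions, so the Tpsb2 count is uncertain.

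**Figure D2:**
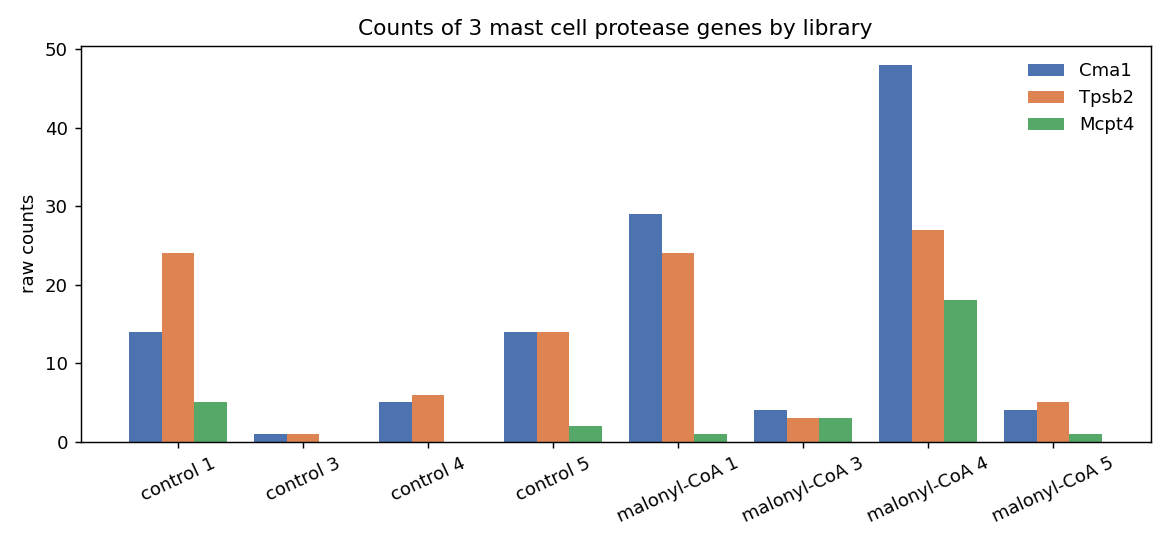
Raw counts (vertical axis) of the protease genes Cma1, Tpsb2 and Mcpt4 in each of the 8 libraries (horizontal axis), with 1 bar per gene and library. Cma1 reaches 48 counts in malonyl-CoA 4 and 1 in control 3, and Tpsb2 is high and low in the same libraries.

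Among the genes of the immunoglobulin E receptor, Fcer1a encodes the alpha chain that binds the antibody (ENSMUSG00000005339, chromosome 1, 173221284 to 173227214, minus strand). Controls 1, 3, 4 and 5 had 26.7, 31.6, 25.2 and 36.2 CPM, and the malonyl-CoA libraries 21.1, 21.9, 17.9 and 24.7 CPM. The groups did not overlap, with a narrow gap between control 4 and malonyl-CoA 5. The difference was -0.48 on the log2 scale (SE 0.16, edgeR adjusted p = 0.443), -0.30 without control 5 and malonyl-CoA 4, and -0.26 with the GC and length offset. Ms4a2 encodes the beta chain, which amplifies the signal (ENSMUSG00000024680, chromosome 19, 11615523 to 11623719, minus strand). It read 50.9, 50.2, 54.8 and 76.9 CPM in controls and 45.1, 46.8, 52.7 and 46.5 CPM with malonyl-CoA. Only control 5 stood clear of the others, and the groups overlapped.

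The Ms4a2 log2 fold change of -0.29 (SE 0.15, edgeR adjusted p = 0.519) was -0.12 without control 5, -0.10 without both libraries numbered 5 and -0.024 with the GC and length offset. Ms4a2 has the lowest transcript GC share of the 10, 38.9%, where the tested genes have a median of 49.8% and the members one of 44.3%. Fcer1g, which encodes the gamma chain that many Fc receptors share, had 340 ± 82.5 CPM in controls and 316 ± 82.3 CPM in the treated libraries (SD, n = 4 each), with a log2 difference of -0.11 (SE 0.22) that was 0.18 without control 5 and malonyl-CoA 4. Of the 14 genes listed for signalling below the receptor, all were tested, 0 passed edgeR's test, and 11 were higher and 3 lower (median log2 fold change 0.12). The phospholipase gene Plcg2 had 0.47 (SE 0.18), which was 0.14 with the GC and length offset and 0.30 without control 5 and malonyl-CoA 4. The mast cell exchange factor gene Rasgrp4 had 0.51 (SE 0.22), which was 0.14 with the offset and 0.31 without malonyl-CoA 4. The groups did not overlap in 1 of the 14, the surface receptor gene Cd84, beside 2.93% of all genes below control and 3.21% above. Its log2 fold change of -0.38 (SE 0.14) was -0.23 without control 5, -0.21 without both libraries numbered 5 and -0.25 with the offset.

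Amine and prostaglandin handling is the third role. Hdc encodes histidine decarboxylase, which makes histamine (ENSMUSG00000027360, chromosome 2, 126593667 to 126619299, minus strand). Controls read 191, 160, 231 and 148 CPM and malonyl-CoA libraries 156, 130, 190 and 162 CPM. The libraries numbered 4 were the highest of each group, and the groups overlapped widely. The log2 difference was -0.19 (SE 0.17, edgeR adjusted p = 0.616), and -0.059 without control 4, -0.11 without malonyl-CoA 3, -0.30 without malonyl-CoA 4 and -0.38 without control 5 and malonyl-CoA 4.

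Slc18a2 encodes the vesicular monoamine transporter that loads histamine and serotonin into granules (ENSMUSG00000025094, chromosome 19, 59260896 to 59296012, plus strand). It stood at 34.3, 38.5, 29.6 and 37.6 CPM in controls and at 24.5, 26.9, 25.9 and 25.01 CPM with malonyl-CoA. The 4 malonyl-CoA libraries were tightly grouped and all lay below the lowest control. The means of 35.0 ± 4.00 and 25.6 ± 1.05 CPM (SD, n = 4 each) gave a log2 fold change of -0.45 (SE 0.12, edgeR adjusted p = 0.372). Over 21 alternative settings this value stayed between -0.53 and -0.40, and its adjusted p between 0.0719 and 0.883. The antisense gene Gm29261, which overlaps Slc18a2, had 0 counts in every library.

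Hpgd encodes the dehydrogenase that inactivates prostaglandins (ENSMUSG00000031613, chromosome 8, 56294585 to 56321043, plus strand), and it is not restricted to mast cells. Controls had 18.8, 13.7, 14.95 and 20.05 CPM, and malonyl-CoA libraries 8.04, 10.2, 9.69 and 12.9 CPM. All malonyl-CoA libraries were below all controls, with malonyl-CoA 1 the lowest. From 16.9 ± 3.04 to 10.2 ± 2.04 CPM (SD, n = 4 each), it had a log2 fold change of -0.73 (SE 0.19, edgeR adjusted p = 0.352), the most negative of the 10. Over 21 alternative settings it lay between -0.86 and -0.57, with -0.57 under the GC and length offset, and its adjusted p between 0.0609 and 0.883.

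The 19 listed genes for histamine, serotonin and eicosanoids were set beside these 3 members, and 14 were tested. None passed edgeR's test, 9 were lower and 5 higher, and the median log2 fold change was -0.13. Hnmt, which methylates and inactivates histamine, stood at 25.3, 19.2, 17.3 and 22.5 CPM in controls and at 14.2, 11.4, 12.1 and 15.9 CPM with malonyl-CoA, a log2 fold change of -0.66 (SE 0.17, edgeR adjusted p = 0.352). Over 21 alternative settings the Hnmt value lay between -0.75 and -0.45. Its groups did not overlap, nor did those of Ptgr1, a reductase that acts on prostaglandins and leukotrienes (-0.31, SE 0.11), and of Ptgs1, cyclooxygenase 1 (-0.23, SE 0.10), each lower with malonyl-CoA. These 3 of the 14 stand beside 2.93% of all genes below control, and 0 of the 14 lay above control, beside 3.21%. Lta4h, the leukotriene A4 hydrolase, had -0.28 (SE 0.11) and the amine transporter gene Slc22a3 -0.31 (SE 0.12, and -0.50 with the GC and length offset), and in both the groups overlapped. The 5 higher genes were Ptgs2 (1.11, SE 0.67), Ptges (0.87, SE 0.42), Hrh2 (0.46, SE 0.23), Hrh1 (0.36, SE 0.29) and Hpgds (0.19, SE 0.25), each with overlapping groups.

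Il1rl1 encodes ST2, the receptor for interleukin-33, which basophils, mast cells and type 2 lymphoid cells carry (ENSMUSG00000026069, chromosome 1, 40429570 to 40465415, plus strand). It had 24.6, 25.4, 17.8 and 24.9 CPM in controls and 19.9, 19.6, 17.95 and 17.6 CPM with malonyl-CoA. Control 4 lay with the malonyl-CoA libraries and the other 3 controls above them. Malonyl-CoA minus control was -0.31 on the log2 scale (SE 0.14, edgeR adjusted p = 0.515). The counts are per gene and do not separate the membrane form of the receptor from the soluble form.

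**Figure D3:**
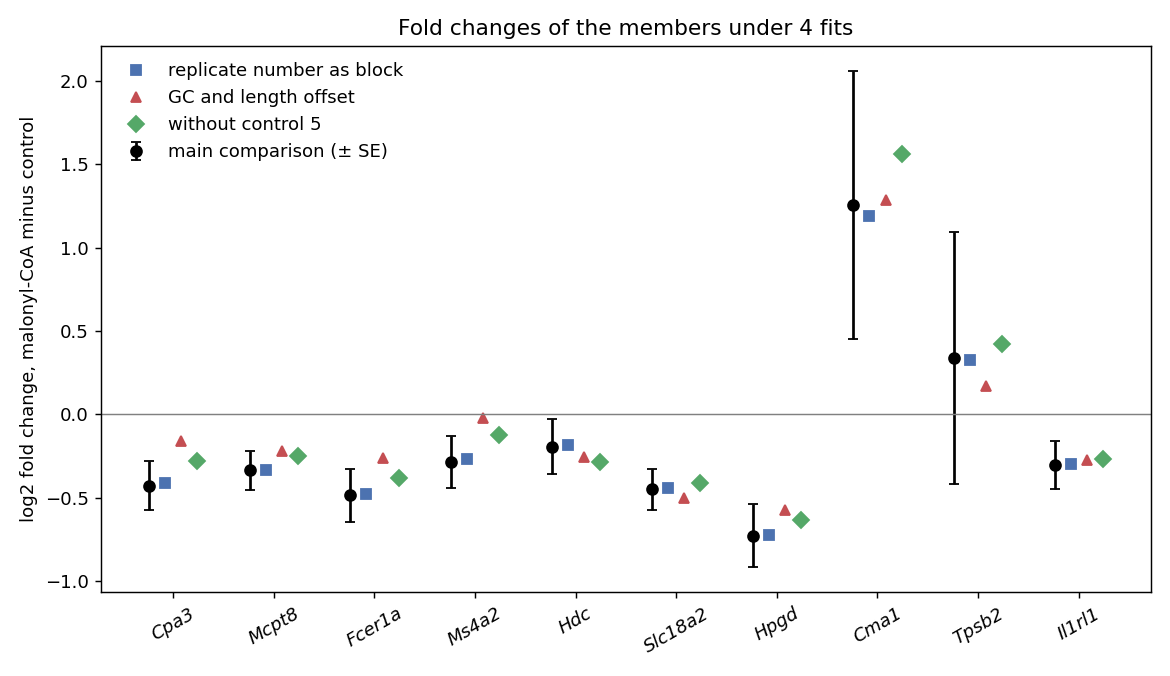
Log2 fold change (vertical axis, malonyl-CoA minus control) of each member in the main edgeR comparison with its SE, with the replicate number as a block, with an offset for GC content and length, and without control 5. Slc18a2 and Hpgd stay at or below -0.40 in all 4 fits, while Ms4a2 moves from -0.29 to -0.024 with the offset.

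How the members varied among themselves was described by Pearson's r of log2 CPM over the 8 libraries, which share depth, composition and the treatment difference. Cpa3 and Mcpt8 had r = 0.95 (Spearman's rho = 0.93), which was 0.86 without control 5 and malonyl-CoA 1, the libraries farthest from the Cpa3 median, and 0.88 after the group means were subtracted. Cpa3 and Ms4a2 had r = 0.92, which was 0.59 without those libraries and 0.905 within groups. Cma1 and Tpsb2 had r = 0.94 (rho 0.93), which was also 0.94 without control 3 and malonyl-CoA 4 and 0.96 within groups. For Cpa3 and Ms4a2 the value within groups includes control 5, where both genes were highest. Cpa3 with Mcpt8, and Cma1 with Tpsb2, thus varied together among libraries of the same group as well.

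For Slc18a2 this was not so with most members. Its r was 0.70 with Cpa3, 0.76 with Mcpt8, 0.62 with Ms4a2 and 0.78 with Hpgd, but 0.12, 0.16, 0.28 and 0.14 within groups. With Il1rl1 its r was 0.88, and 0.84 within groups, and with Fcer1a 0.86, and 0.57 within groups. Hdc had r between -0.27 and 0.29 with the other members. Without the 2 libraries farthest from the partner's median, its r was 0.75 with Cpa3, 0.64 with Mcpt8 and 0.88 with Ms4a2, and within groups it was -0.80 with both Fcer1a and Slc18a2, so the values for Hdc depend on which libraries enter. Cma1 and Tpsb2 had r between -0.49 and 0.27 with the other 8 genes.

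**Figure D4:**
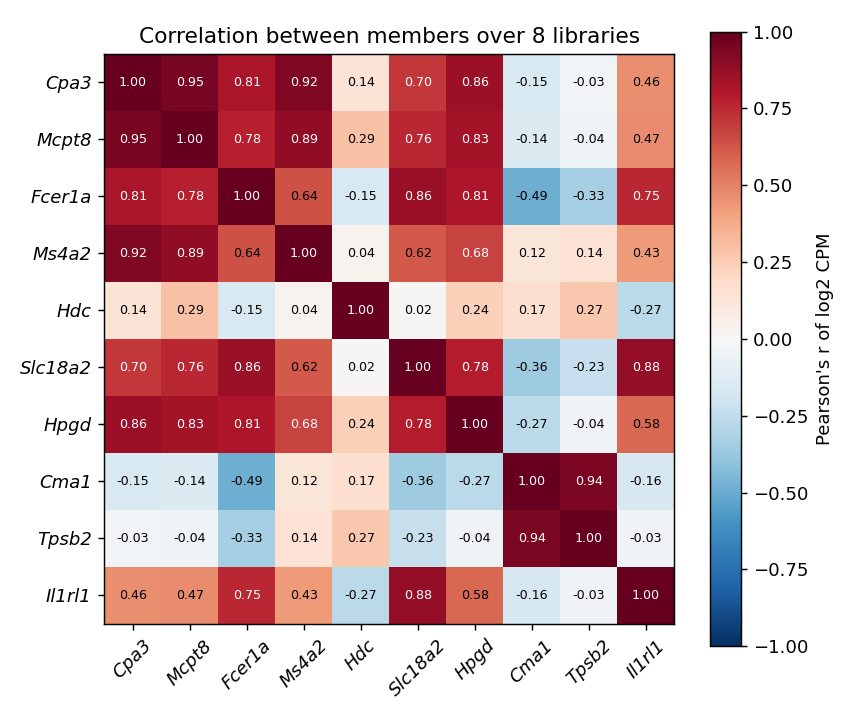
Pearson's r of log2 CPM over 8 libraries for each pair of members, written in each cell and coloured from -1 (blue) to 1 (red). Cpa3 and Mcpt8 reach 0.95 and Cma1 and Tpsb2 0.94, while Cma1 and Fcer1a are at -0.49.

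Outside the set, the genes most like 4 of the members were ranked by the same r among 10660 genes whose mean log2 CPM reached 1. Rbbp9 (r = 0.97) and Hdac9 (0.97) led for Cpa3, Fmo5 (0.99) and Sh2d1b1 (0.98) for Slc18a2, Atpaf1 (0.97) for Hpgd and Kbtbd3 (0.97) for Mcpt8. Mxi1 was among the 5 nearest to both Cpa3 and Mcpt8. These ranks rest on 8 libraries and include the difference between groups. They were not repeated within groups or with libraries left out. Rbbp9 and Hdac9, like Cpa3, were highest in control 5.

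Other granule genes, growth factor receptors and transcription factors were compared through lists. Of 13 other granule protease and proteoglycan genes 7 were tested, with 0 past edgeR's test, 4 lower and 3 higher (median log2 fold change -0.11). Among the higher ones, Ctsc had 0.36 (SE 0.17) and Ext1 0.22 (SE 0.12), and in both the groups overlapped. Srgn, the core protein of the proteoglycan that holds granule contents, had 2016, 1709, 1610 and 1749 CPM in controls, against 1341, 1115, 1037 and 1546 CPM with malonyl-CoA. Its groups did not overlap, and the difference came to -0.49 on the log2 scale (SE 0.15, edgeR adjusted p = 0.419), or -0.30 with the GC and length offset. Many other blood cells transcribe Srgn as well.

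Cytokines and their receptors were listed next. This list also holds other genes, among them Cd63, Cyp11a1 and Gzmb, and Gzmb is in the granule list too. Of its 23 genes 18 were tested, 0 passed edgeR's test, and 9 were lower and 9 higher (median 0.0094). Csf2rb, the beta chain shared by the receptors for interleukin-3, interleukin-5 and GM-CSF, had 121, 161, 169 and 141 CPM in controls and 207, 227, 260 and 181 CPM with malonyl-CoA. All 4 malonyl-CoA libraries were above all controls, with a log2 fold change of 0.57 (SE 0.15, edgeR adjusted p = 0.352). Its adjusted p over 21 alternatives ran from 0.0480, with the replicate block, to 0.883. The interleukin-3 beta chain gene Csf2rb2, a close copy of Csf2rb, had 0.54 (SE 0.17), and Il3ra, the alpha chain of the interleukin-3 receptor, 0.31 (SE 0.18). Neither overlapped between groups, but for Il3ra the highest control (28.69 CPM) almost met the lowest malonyl-CoA library (28.73 CPM). These 3 of the 18 tested genes lay above control without overlap, beside 3.21% of all genes, and 0 lay below, beside 2.93%. With the GC and length offset Csf2rb was at 0.37, Csf2rb2 at 0.29 and Il3ra at -0.027, and without control 5 Il3ra was at 0.16. Cd63, a granule membrane protein used to follow basophil degranulation, had -0.47 (SE 0.17), with overlapping groups. Cd200r3, a basophil and mast cell receptor gene, had -0.43 (SE 0.24), also with overlapping groups, and -0.27 without control 5, -0.28 with the offset and -0.15 without control 5 and malonyl-CoA 4.

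Of 15 transcription factor genes, all tested, 0 passed edgeR's test, and 6 were lower and 9 higher (median 0.094). Spi1, encoding PU.1, stood at 151 ± 12.1 CPM in controls and 204 ± 4.86 CPM in the treated libraries (SD, n = 4 each), a log2 fold change of 0.43 (SE 0.098, edgeR adjusted p = 0.352). Its adjusted p over 21 alternatives ran from 0.0229, with DESeq2, to 0.883. Tal1 had -0.24 (SE 0.10), or -0.54 with the GC and length offset, and its groups did not overlap. Gata2, picked after its values were seen, had 0.094 (SE 0.15) and overlapping groups, and its sign changed with the offset (-0.23) and without malonyl-CoA 4 (-0.050).

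**Figure D5:**
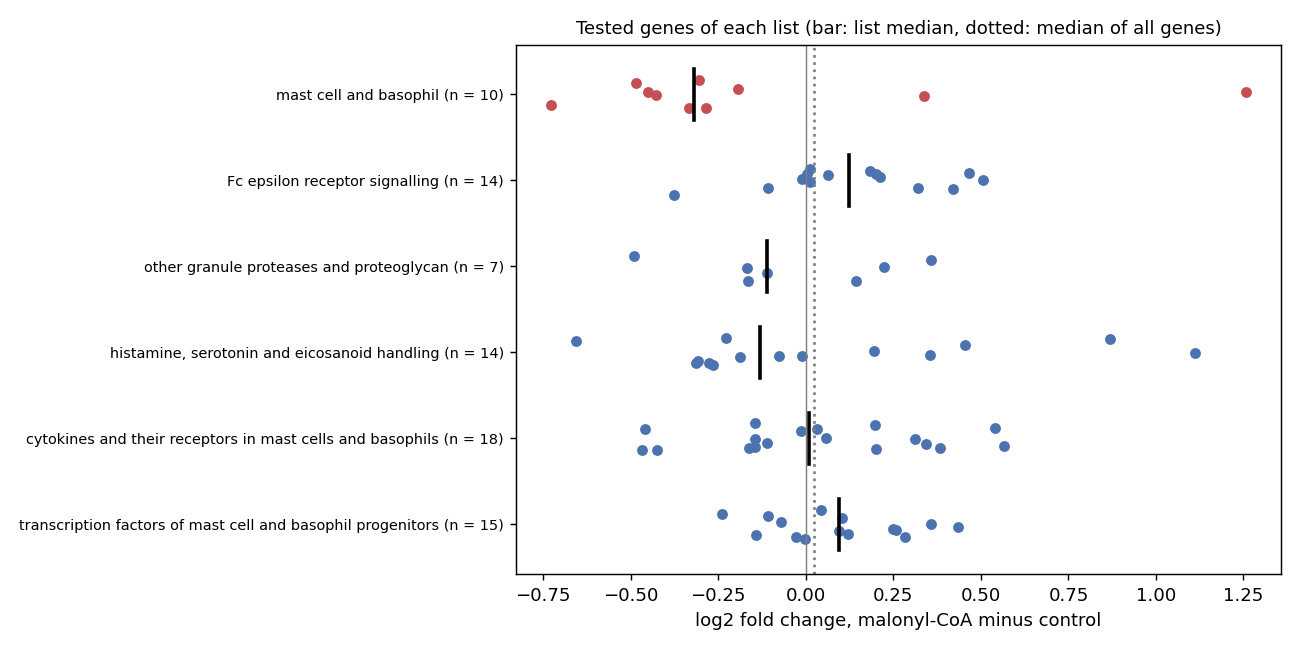
Log2 fold change (horizontal axis, malonyl-CoA minus control) of each tested gene of the member set (red) and of 5 lists of related genes (blue), with a black bar at each list's median and a dotted line at the median of all genes, 0.023. The member set has its median at -0.32, with Cma1 at 1.26 on the far right.

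Markers of other blood cells in the same libraries are given as measured, and their part in the values above was not tested. Neutrophil precursor genes, among them Ctsg, which the granule list also holds, were lower with malonyl-CoA in 10 of 10 (median log2 fold change -0.50), with a summed level of 13548 to 21398 CPM in control libraries and 13704 to 17520 CPM in treated ones. Eosinophil genes had 4 of 7 tested genes lower (median -0.063), and their sums were 232 to 308 and 193 to 275 CPM. Megakaryocyte and platelet genes had 5 of 10 lower (median -0.0066, sums of 982 to 1217 and 783 to 1136 CPM). Type 2 lymphoid genes, whose cells also carry Il1rl1, had 1 of 5 lower (median 0.49, sums of 54.3 to 86.9 and 55.7 to 84.7 CPM), with Il7r at 56.2, Rora at 7.96 and Thy1 at 2.72 CPM in control and the cytokine gene Il5 and the T cell gene Cd3e at 0 counts throughout. Monocyte and macrophage genes were higher in 6 of 8 (median 0.32, sums of 2033 to 2591 and 2103 to 2555 CPM), as were dendritic cell genes in 5 of 8 (median 0.32, sums of 976 to 1125 and 1062 to 1234 CPM). Erythroid genes had 4 of 6 lower (median -0.31, sums of 763 to 889 and 800 to 880 CPM), with Alas2 at 0 counts. Stem and progenitor genes had 5 of 10 lower (median -0.067, sums of 1338 to 1484 and 1234 to 1303 CPM). No gene of these 8 lists passed edgeR's test over all genes. With the replicate block 4 passed (Ciita, Csf1r, Fscn1 and S100a8), beside 1.35% of all genes. With DESeq2 4 passed (Cd34, Csf1r, Fcgr1 and Fscn1), beside 0.597% of the genes with an adjusted p. These lists were chosen with earlier results known, so such counts describe them and do not test them. The 10 members summed to 811 to 1005 CPM in control libraries and 651 to 757 CPM in treated ones, and these sums did not overlap, with Mcpt8, Cpa3 and Hdc as their main part. Sums of the stem and progenitor list, and of the histamine, serotonin and eicosanoid list, did not overlap either, each lower with malonyl-CoA.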

How the data were processed

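Gene counts were measured in 4 control and 4 malonyl-CoA libraries. The kit keeps strand and took 350 ng of total RNA, per the labels' protocols. The deposited values are raw counts per Ensembl gene. The authors used cutadapt 1.8, STAR 2.5.2b and HTSeq 0.6.1 with the GRCm38 build, per the submitters' processing notes. Which annotation release was counted is not given in the sources used here, nor is the strand setting, so counts of overlapping genes are uncertain. Counter classes that name no gene were left out (no feature 1.11% to 2.94%, ambiguous 0.715% to 0.891%, several positions 38.2% to 51.1% of tallied reads). Of 48709 identifiers, 48349 matched GENCODE M21 (GRCm38), the source of symbols, coordinates, exon lengths and GC shares.

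Groups came from the sample titles. The labels call the libraries biological replicates without saying whether these are animals or cultures, so p-values measure the spread between these samples. edgeR 4.0.16 (R 4.3.3) was run with filterByExpr (minimum count 10, total 15), TMM factors and a robust two-sided quasi-likelihood test with no covariate, adjusted by Benjamini-Hochberg over 12696 genes at 0.05. The SE of a log2 fold change is its size divided by the root of the F statistic. Log2 CPM for correlations used a prior count of 2. The fits were tested on simulated data. There the main edgeR fit called 59% of the genes changed by a log2 size of 1 and 100% of those changed by 2. False ones made up 3.68% of its calls. Simulated counts were independent draws around a common mean per gene, with no trend by GC content and no outlying library. These rates may thus not hold for the real libraries. Smaller changes were not simulated. Alternatives were RLE factors, library size only, 2 other filters, a replicate block, DESeq2 1.42.0, limma-voom (limma 3.58.1), libraries left out, a loess offset on GC content and length (span 0.5), and a threshold of 0.10. The members and lists were chosen with earlier results of these data known. Named genes are the members, up to 4 genes per list with the smallest p, genes of a list with a mean of at least 200 CPM, and the 5 genes nearest to each of 4 members. Not every such gene is described. Ptgs1, Ptgs2, Ptges, Hrh1, Hrh2, Hpgds, Il3ra, Gata2, Rora, Cd3e, Il5 and Alas2, and the counts of mature mast cell genes, fall outside this rule and were added after values were seen.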

Additional observations from a re-analysis of the deposited data

Results flagged for a closer look

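Each member was examined in each group of 4 libraries for a single library far from the other 3, 20 groups of values in all. Il1rl1 in control 4 was the one case, at 17.8 CPM against 24.6 to 25.4 CPM in the other 3 controls. Its gap to the nearest control was 0.902 of the group's whole range, above Dixon's critical value for 4 samples. Chance flags about 1 in 20 such groups, so 1 case among 20 is the number chance gives. Without control 4 the Il1rl1 log2 fold change was -0.41 (edgeR adjusted p = 0.250), and over its 21 alternatives it lay between -0.41 and -0.23, at adjusted p-values from 0.182 to 0.883.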

How the results depend on the processing

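Over all alternatives 0 of the 10 members passed an adjusted p of 0.05, and 201 of 204 member values kept their direction. The 3 exceptions belong to Tpsb2, whose log2 fold change ranged from -0.31 (without both libraries numbered 4) to 1.08 when libraries were left out, and was -0.026 without control 3 and -0.067 without malonyl-CoA 4. The labels do not say what the replicate numbers stand for, so the fit without a block was the main one and the block an alternative. Deviations from the group means correlated at 0.43, 0.43 and 0.75 for numbers 1, 3 and 4 but at 0.052 for number 5. Libraries numbered 1, 3 and 4 each correlated best with their own number, and control 5 and malonyl-CoA 5 each better with another. These values do not settle whether the numbers mark pairs. In 6 members (Cpa3, Mcpt8, Fcer1a, Ms4a2, Slc18a2 and Hpgd) all 4 same-number differences were below 0. The share of all genes with this pattern was not computed, so the count only describes the members. Under the replicate block edgeR called 172 of all genes (1.35%), 1 gene of the related lists (Csf2rb) and 0 members, and at an adjusted p under 0.10 it called 5 members (Cpa3, Fcer1a, Mcpt8, Slc18a2 and Hpgd, at 0.0602 to 0.0719, against 0.352 to 0.487 without the block) and 11.5% of all genes. DESeq2 called 82 genes (0.597%) and 1 of the related lists (Spi1), and at 0.10 Slc18a2 and Hpgd (1.05% of all genes). With no low-count filter 1 gene was called. The GC and length offset took the members' median from -0.32 to -0.24, the value of Il3ra to -0.027 and that of Gata2 to -0.23. Gata2 was at -0.026 without control 5 and malonyl-CoA 4, and between -0.050 (without malonyl-CoA 4) and 0.16 with libraries left out. Fcer1g was at 0.18 without control 5 and malonyl-CoA 4, and between -0.28 and 0.044 with libraries left out, above 0 without control 5 or without malonyl-CoA 4. The cause of these shifts was not tested. Cma1 and Tpsb2, at 1 to 48 counts per library, were not tested at 1 CPM in 4 libraries or with some libraries left out, and their values are limited by depth.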
